A study of Mus musculus with 5 samples.

Results

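The genes examined here are 10 genes that make, bind, break down or sense retinoic acid. They are the retinaldehyde dehydrogenases Aldh1a1, Aldh1a2 and Aldh1a3, the binding proteins Crabp1 and Crabp2, the hydroxylases Cyp26a1 and Cyp26b1, and the receptors Rara, Rarb and Rarg. They were chosen because Cyp26b1 had one of the largest decreases of this same comparison, and the other 9 genes were added for their place in the pathway. All features whose symbol was one of these 10 were taken, which gave 15 of the 44290 features on each array and 10 of the 19087 genes with a symbol. Of the 10 genes, 9 were measured on at least 3 of the 5 arrays and entered the fit across all 28035 genes and unnamed features. Since Cyp26b1 was selected on these values, the values below are a description of the 10 genes. No p-value is given for any of them, and where the fit across all genes called one of them this is stated as a description only.

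Expression was measured on 5 two-colour arrays of the laser-dissected hippocampal pyramidal layer of male CD1 mouse pups on postnatal day 3 (P3). On each array, RNA from the offspring of cocaine-treated dams, labelled with Alexa 647, was set against RNA from the offspring of saline-control dams, labelled with Alexa 546. Cocaine-treated dams received 20 mg/kg cocaine hydrochloride under the skin 2 times a day on gestational days 8 to 19, and saline-control dams received saline on the same schedule. Dams of both groups were pair-fed, and from birth the litters of both groups were raised by surrogate dams that had not been through the procedure. By the study's methods the tissue for expression came from the right hemisphere of 1 pup of a litter. The labels do not say that the 5 arrays came from separate litters, so any p-value reflects no more than how these arrays varied, and that variation may be technical. The dyes were not exchanged on any array, so an effect of the dye and an effect of cocaine cannot be told apart.

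Retinoic acid is a hormone-like derivative of vitamin A. Retinol is first oxidised to retinaldehyde by alcohol and retinol dehydrogenases, and the ALDH1A enzymes then oxidise retinaldehyde to retinoic acid. CRABP proteins carry it inside the cell, CYP26 enzymes hydroxylate it to forms that are cleared, and the receptors RARA, RARB and RARG bind it in the nucleus. The receptors pair with retinoid X receptors on direct repeats of a short half-site and switch target genes on when retinoic acid is bound. Among these targets are Cyp26a1 and Rarb, so that retinoic acid raises an enzyme of its own clearance and one of its own receptors. In the brain, the meninges are a source of retinoic acid through Aldh1a2, and Cyp26b1 is expressed in the hippocampus.

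The upstream sequences of Cyp26b1, Rarb and Cyp26a1 are printed here. They set the gene that led to the choice of this group beside its relative and a receptor gene, which both hold a direct repeat. Each is the 250 bases before the annotated start, on the strand of the gene, from the RefSeq annotation of the mouse build GRCm38.p6. The window of Cyp26b1 is chr6:84593811-84594060 on the minus strand, that of Rarb is chr14:16575477-16575726 on the minus strand, and that of Cyp26a1 is chr19:37697558-37697807 on the plus strand. Capitals mark the TATAAA element in the first sequence and the direct repeat with 5 bases between its half-sites in the others.
Cyp26b1: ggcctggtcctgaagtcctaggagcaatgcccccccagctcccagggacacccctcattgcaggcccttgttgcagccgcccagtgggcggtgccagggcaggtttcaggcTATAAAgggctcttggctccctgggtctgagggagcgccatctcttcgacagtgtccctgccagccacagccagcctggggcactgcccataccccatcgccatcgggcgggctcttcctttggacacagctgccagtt
Rarb: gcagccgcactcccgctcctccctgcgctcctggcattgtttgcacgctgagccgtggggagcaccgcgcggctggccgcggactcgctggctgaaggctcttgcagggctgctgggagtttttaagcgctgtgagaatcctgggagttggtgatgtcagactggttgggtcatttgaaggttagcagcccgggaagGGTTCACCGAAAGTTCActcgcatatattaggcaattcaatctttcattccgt
Cyp26a1: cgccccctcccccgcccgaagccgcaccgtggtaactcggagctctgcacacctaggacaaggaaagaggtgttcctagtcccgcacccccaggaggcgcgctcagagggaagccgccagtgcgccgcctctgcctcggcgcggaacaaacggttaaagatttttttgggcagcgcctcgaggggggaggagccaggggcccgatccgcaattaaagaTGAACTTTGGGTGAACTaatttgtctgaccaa
The TATAAA of Cyp26b1 began 139 bases before its start. The repeat of Rarb, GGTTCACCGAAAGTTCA, began 53 bases before its start. That of Cyp26a1 began 32 bases before its start and reads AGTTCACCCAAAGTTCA on the opposite strand.

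Windows from 250 bases before to 50 bases after a start were searched on both strands for a direct repeat of the receptor half-site, which could read AGGTCA or else AGTTCA, and likewise either GGGTCA or else GGTTCA, in any pairing and with 5 bases between them. It was found in 32 of 32851 windows of all genes (0.0974%), and Rarb and Cyp26a1 were the 2 of 8 genes of this group with a window that held it. The spacings of 1 base (0.222% of all windows) and 2 bases (0.268%) were in none of the 13 windows of these 8 genes. TATAAA on either strand stood in 13.6% of all windows, and in those of Cyp26b1 and Cyp26a1. These matches overlap no other motif searched, and a match is a string of letters, not evidence of binding. A window without a match does not show that its gene is no target of retinoic acid. No window was used here for Aldh1a3 and Crabp2.

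The deposited values are log2 ratios between the channels. Which channel is on top is not stated; the order of the channels and the dyes make cocaine divided by saline the likely direction, and all signs below follow it. With the ratio the other way up, every sign, call direction and rank below would be mirrored. Arrays 1 and 2 stood apart from arrays 3 to 5, with deposited medians of -2.68 and -2.52 against -0.37, -0.78 and 0.26. Ratios of whole numbers no larger than 30 accounted for 85.8% to 86.7% of the measured values on arrays 3 to 5, and for 34.0% and 38.2% on arrays 1 and 2. An exact 0 stood at 4776 to 21134 features of an array and the ceiling value of 16.61 at 37 to 3411, in both cases most often on array 5, and both were treated as not measured. Every value was then set relative to the median of its array. The table holds no intensities, so levels cannot be compared between genes, and marker genes cannot show which cells the dissected tissue held. In such bulk tissue, fewer cells of a type and less RNA per cell cannot be told apart.

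Of the 75 values of the 15 features, 59 were measured, 14 were exact zeros and 2 were at the ceiling. Arrays 1 to 3 gave 14 of the 15 features each, array 4 gave 12, and array 5 gave 5. Such ratios of small whole numbers were 35 of the 59 measured values.

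In the fit across all genes (limma, Benjamini-Hochberg adjusted p of 0.05), 1 of the 9 tested genes of the group was called lower and none was called higher. Over all 28035 genes and unnamed features, 7.05% were called, 1.16% lower and 5.89% higher. The gene called lower was Cyp26b1, by which the group had been chosen, so nothing is read from this count. The median of the 9 means was -0.89 on the log2 scale, with 5 of 9 below 0, against a median of -0.14 and 55.8% below 0 over all genes tested. Without Cyp26b1 the median of the remaining 8 means was -0.32, with 4 of 8 below 0.

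**Figure D1:**
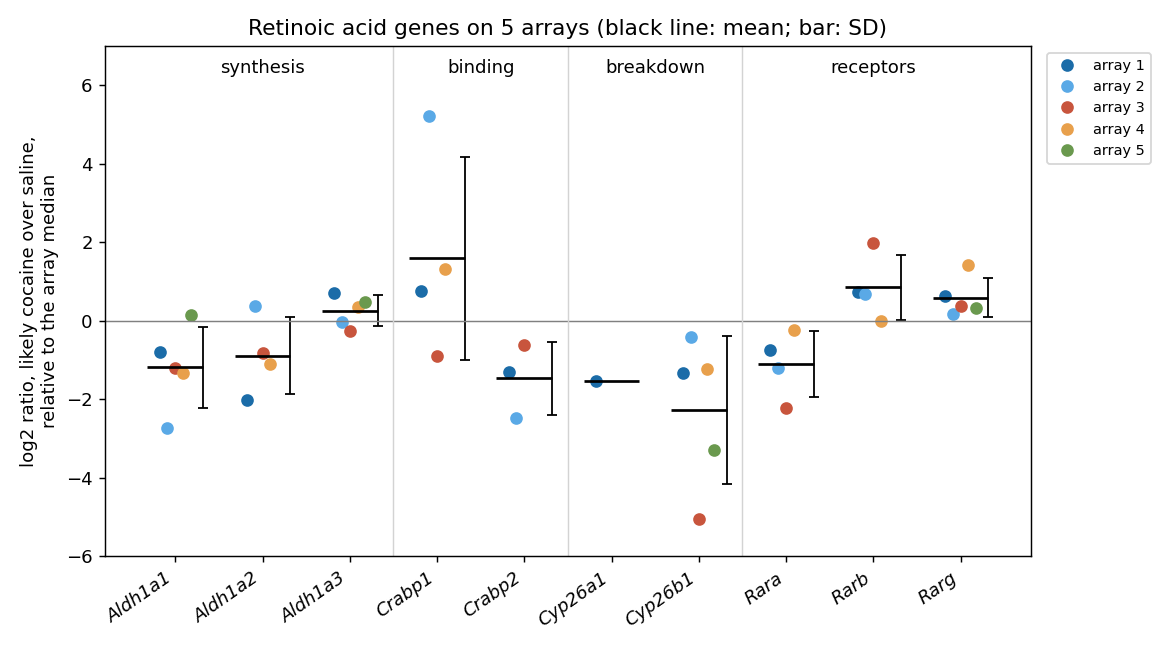
Log2 ratio of each retinoic acid gene on each array, likely cocaine over saline and relative to the array median, grouped by role; points are arrays, the black line is the mean and the bar is the SD. The 5 points of Cyp26b1 all lie below 0, between -5.05 and -0.41, while Rarg lies above 0 on all 5 arrays and Crabp1 spreads from -0.90 to 5.20.

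Of the breakdown enzymes, Cyp26b1, which hydroxylates retinoic acid, had log2 ratios of -1.34, -0.41, -5.05, -1.22 and -3.29 on arrays 1 to 5. All 5 values lay below 0, with arrays 3 and 5 far lower than the others and array 2 close to the array median. The mean was -2.26 ± 1.88 (SD, n = 5), a ratio 4.80-fold lower than the array median, and its SD was close in size to the mean. Values below 0 on all arrays were found for 6.61% of the 11731 genes measured on 5 arrays. The same sign on every array was a condition by which Cyp26b1 was chosen.

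Within each array, the place of Cyp26b1 ranged widely. On array 3 only 3 of 36009 measured features were lower (0.00833%), and on array 5 314 of 19745 were lower (1.59%). On arrays 1 and 4 the shares were 15.2% and 19.4%. On array 2, 14688 of 38208 features (38.4%) were lower. The mean of arrays 1 and 2 was -0.87 and that of arrays 3 to 5 was -3.19, with array 4 close to array 1. Only the value of array 4 was itself a ratio of whole numbers no larger than 30. The deposited -5.426 of array 3 lies beyond the range of such ratios. It could not have matched, so the search cannot show whether it came from low readings. A setting below that leaves such ratios out could not remove this value. Ratios of larger whole numbers were not searched for on any array.

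Among the 28035 tested, Cyp26b1 ranked 136 from the lowest mean. The choice of the group rested on a narrower list, the 12 largest decreases among genes that were called, had a value on all 5 arrays and had the same sign on each, with predicted and unnamed transcripts left out. There Cyp26b1 stood in place 6, between Nanp (mean -2.43) and Eldr (-2.22). The last gene inside that list was Arhgap11a (-2.08), and the first outside it was Spaca1 (-2.06).

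Cyp26a1, a hydroxylase whose gene retinoic acid itself raises, was measured only on array 1. Its log2 ratio there was -1.54, and the other 4 arrays listed it at exactly 0. It was left out of the fit, and no change can be given for it. On array 1 its ratio lay 0.207 below that of Cyp26b1.

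Of the enzymes of synthesis, Aldh1a1, the ALDH1A enzyme known from dopamine neurons, had log2 ratios of -0.80, -2.72, -1.21, -1.34 and 0.15 on arrays 1 to 5. Array 2 was lowest, and array 5 stood above 0. The mean was -1.19 ± 1.04 (SD, n = 5), and the gene was not called.

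Aldh1a2, the enzyme of the meninges and of the early embryo, had log2 ratios of -2.004, 0.38, -0.82 and -1.10 on arrays 1 to 4 and an exact 0 on array 5. Of these, 3 were below the array median and array 2 was above it. The mean was -0.89 ± 0.98 (SD, n = 4), and it was not called. As measured beside it, 1 of 10 tested markers of meninges and fibroblasts was called lower, namely the collagen gene Col1a2 (mean -1.86, limma adjusted p = 0.0298). Over all genes 1.16% were called lower. The call of Col1a2 was lost without array 1 (0.0890), 2 (0.0652), 3 (0.0815) or 5 (0.0730), and with exact zeros kept (0.0979). Of the 10 markers, 6 had means below 0. Among those above 0 were Col1a1 (0.60), Col3a1 (0.83) and Igf2 (1.44). The median of the 10 markers on arrays 1 to 5 was 0.17, 0.80, -0.42, 0.38 and -0.33, and their part in the values of Aldh1a2 was not tested.

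Aldh1a3, the third enzyme of this step, averaged 0.25 ± 0.39 (SD, n = 5) over its pair of probes, with log2 ratios of 0.71, -0.03, -0.27, 0.36 and 0.47 on arrays 1 to 5. These means hide opposite probes. The first probe was below 0 on all 4 arrays that measured it (-0.67, -2.31, -1.74 and -0.39, mean -1.28 ± 0.90). The second probe was above 0 on all 5 arrays (2.09, 2.24, 1.21, 1.12 and 0.47, mean 1.43 ± 0.73). No direction is therefore given for Aldh1a3.

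The binding proteins had few values. Crabp1, which carries retinoic acid in the cytoplasm, had log2 ratios of 0.75, 5.20, -0.90 and 1.33 on arrays 1 to 4 and an exact 0 on array 5. Its mean of 1.60 ± 2.58 (SD, n = 4) rested on array 2, and array 3 stood below 0. Crabp2, which delivers retinoic acid to the receptors in the nucleus, had log2 ratios of -1.29, -2.48 and -0.63 on arrays 1 to 3 and exact zeros on arrays 4 and 5. All 3 values were below the array median, with a mean of -1.47 ± 0.94 (SD, n = 3). Neither was called.

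Among the receptors, Rara, the most broadly expressed of them, had log2 ratios of -0.76, -1.21, -2.21 and -0.22 on arrays 1 to 4 and stood at the ceiling on array 5. The 4 measured values were below 0, lowest on array 3, and averaged -1.10 ± 0.84 (SD, n = 4). A ceiling value is the opposite extreme, and Rara was not called.

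Rarb, the receptor that retinoic acid raises, had log2 ratios of 0.73, 0.69, 1.98 and 0.00 on arrays 1 to 4, and neither probe was measured on array 5. No array lay below the median, and the mean was 0.85 ± 0.83 (SD, n = 4). Its first probe gave 0.73, -0.42 and 3.18 on arrays 1 to 3, and its second gave 1.79, 0.79 and 0.00 on arrays 2 to 4. All 6 of these values were ratios of small whole numbers, and on arrays 2 and 3 the probes differed by more than 2 log2 units.

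Rarg, the third receptor, had log2 ratios of 0.62, 0.19, 0.37, 1.43 and 0.32 on arrays 1 to 5, averaged over 4 probes. Each was above 0, with a mean of 0.59 ± 0.50 (SD, n = 5). Values above 0 on all arrays were found for 23% of the 11731 genes measured on 5 arrays. The 4 probe means were 1.05, -1.29, 1.24 and 1.20. The second probe was below 0 on all 4 arrays that measured it and the first was above 0 on all 5, so the probes of this gene disagreed as those of Aldh1a3 did.

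Probes with means of opposite sign were common on these arrays. They were found in 3861 of 7292 genes with at least 2 probes (52.9%), and in 2 of the 3 genes of the group with several probes. Cyp26b1, Cyp26a1, Aldh1a1, Aldh1a2, Crabp1, Crabp2 and Rara each rested on 1 probe, so for these genes no such comparison could be made.

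**Figure D2:**
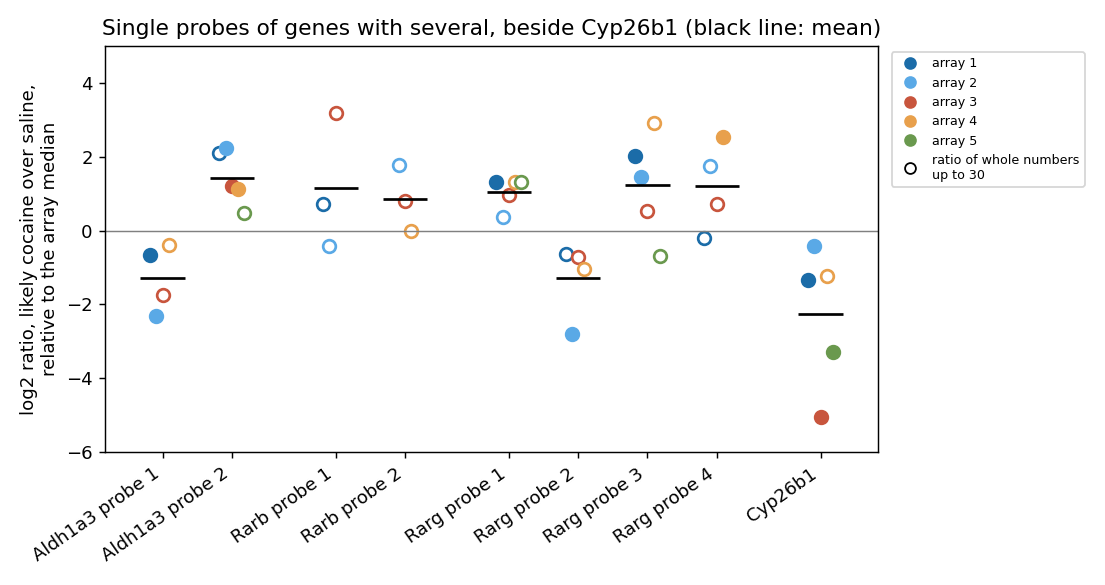
Log2 ratio of each probe of Aldh1a3, Rarb and Rarg on each array, beside the single probe of Cyp26b1, likely cocaine over saline and relative to the array median; points are arrays, open where the value is a ratio of whole numbers up to 30, and the black line is the mean. The pair of Aldh1a3 probes averaged -1.28 and 1.43, and the second Rarg probe averaged -1.29 where the others averaged 1.05 to 1.24.

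In the order of the means from the lowest, the genes stood as Cyp26b1 (-2.26), Crabp2 (-1.47), Aldh1a1 (-1.19), Rara (-1.10), Aldh1a2 (-0.89), Aldh1a3 (0.25), Rarg (0.59), Rarb (0.85) and Crabp1 (1.60). Every pair of neighbours in this order differed by less than the larger of their SDs, except Aldh1a2 and Aldh1a3, whose means were 1.14 apart against SDs of 0.98 and 0.39. This is an order of ratios and not of levels.

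Differences between genes of the same array do not depend on the level to which an array is set. The difference of Cyp26b1 minus Rarg was -1.96, -0.60, -5.43, -2.66 and -3.61 on arrays 1 to 5. It was below 0 on 5 of 5 arrays and averaged -2.85 ± 1.81 (SD). Cyp26b1 was chosen with values below 0 on all 5 arrays and Rarg lay above 0 on all, so this sign was fixed beforehand. Cyp26b1 minus Aldh1a3 averaged -2.51 ± 1.76 and was also below 0 on 5 of 5 arrays. Both differences rest on averages of probes that disagreed. On array 2 Cyp26b1 (-0.41) lay above the first Aldh1a3 probe (-2.31) and the second Rarg probe (-2.80). Cyp26b1 was below Rarb and below Crabp1 on the 4 arrays that measured each pair, with mean differences of -2.86 ± 2.82 and -3.60 ± 1.61. For Rarb, which lay below 0 on no array, the sign was likewise fixed by the choice. For Aldh1a3 it was fixed on arrays 1, 4 and 5, and for Crabp1 on arrays 1, 2 and 4, where these genes lay above 0.

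Against the genes with low ratios the order within arrays varied. Cyp26b1 minus Aldh1a1 averaged -1.08 ± 2.57 and was below 0 on 3 of 5 arrays. Cyp26b1 minus Rara averaged -0.91 ± 1.50 and Cyp26b1 minus Aldh1a2 averaged -1.12 ± 2.16, each below 0 on 3 of 4 arrays. Cyp26b1 minus Crabp2 averaged -0.80 ± 3.31 and was below 0 on 2 of 3. All of these SDs exceeded the mean differences. Cyp26b1 minus the median of the other measured genes of the group was -0.58, -0.49, -4.33, -1.22 and -3.61 on arrays 1 to 5.

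The 5 genes whose ratios were most like those of Cyp26b1 over the 5 arrays were sought among 8779 named genes measured on all of them, by the root mean square difference in log2 ratio. They were Parp11 (0.914), Mtmr11 (0.976), Vmn2r115 (1.06), Il10rb (1.08) and Rpp30 (1.10). None is a gene of the retinoic acid pathway. Array 3 was lowest for each of the 5, as it was for Cyp26b1. Since they were picked for likeness over these same arrays, this follows from the search and is no separate result.

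Cyp26b1 lay below the median of all genes tested under each of 20 other settings, but its call did not hold under all of them. Its mean minus that median ran from -3.93 to -0.85, and it was called lower under 10 of the 20. All settings use the values by which Cyp26b1 was chosen, so they show how far the call depends on the processing and are no support for it. Where it was called, 0.625% to 86.8% of all genes were called lower, and where it was not, 0% to 1.03% were. Without array 3 its mean was -1.56, without array 1 it was -2.49, without array 2 it was -2.72 and without array 5 it was -2.01, and under each of these 4 it was not called. Without array 4 it was -2.52 and it was called. With arrays 1 and 2 alone the mean was -0.87, with arrays 3 to 5 alone it was -3.19, and neither was called. With the exact zeros kept, with zeros and ceiling kept, with small whole-number ratios left out, or with Gapdh set at 0 on each array (which leaves out array 4, where Gapdh was not measured), it was not called either.

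**Figure D3:**
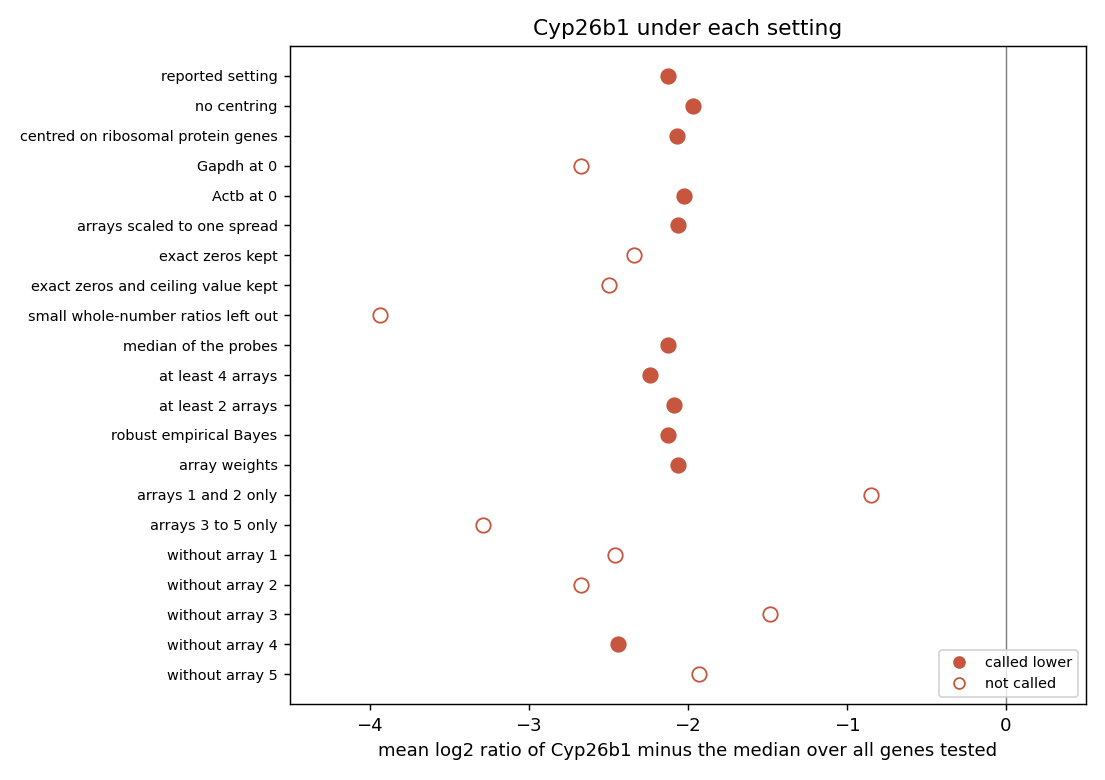
Mean log2 ratio of Cyp26b1 minus the median over all genes tested (horizontal axis, log2 units) under the reported setting and 20 others (rows); filled points were called lower by limma and open points were not called. All points lie below 0, from -3.93 with small whole-number ratios left out to -0.85 with arrays 1 and 2 only.

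The direction of the other genes relative to the median of all genes was mostly kept when the settings changed. Aldh1a1 lay below it under 19 of 19 settings that gave it a value, Aldh1a2 under 18 of 18 and Crabp2 under 14 of 14. Rara lay below it under 17 of 18, the exception being the ceiling value kept, which put it 2.16 above. Rarg (20 settings), Rarb (18) and Crabp1 (18) were above it under all of theirs, and Aldh1a3 lay below it under 2 of 20. All settings use the same values. Several shift all genes of an array alike or change only the variance model, and these could hardly move a gene across that median. The tallies are therefore no support for a direction. How many were called depended on the level to which the arrays were set: 5 of the group were called lower without centring (28.9% of all genes), 6 when ribosomal protein genes were set at 0 (70%) and 8 when Actb was (86.8%). These settings moved the median of all genes to -1.52, -2.22 and -2.90 on the log2 scale. With Gapdh at 0 that median was 1.23 and the 1 call in the group was Crabp1, higher (7.77% of all genes). Measured from 0 instead of the median of all genes, Aldh1a3, Rarb and Rarg turned below 0 under all 3 settings that lowered that median, Crabp1 turned below 0 with ribosomal protein genes or Actb at 0, and Aldh1a2, Rara and Crabp2 turned above 0 with Gapdh at 0.

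The genes around this core pathway were counted in 7 lists, with 116 genes tested in all. Of these, 1 was called higher, 3 were called lower and 112 were not called, against 5.89% called higher and 1.16% called lower over all genes, and their median of -0.13 was close to that of all genes (-0.14). The list genes named below with a mean above 0 all turned below 0 with Actb at 0, and all but Aldh9a1 did so with ribosomal protein genes at 0. Retinol transport and storage had no call among 9 genes, where the smallest p belonged to Rlbp1, a retinaldehyde carrier of the eye (mean 1.18, limma adjusted p = 0.131), and to Stra6, the retinol uptake receptor (0.77, 0.359).

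Of 24 genes of retinol and alcohol dehydrogenases, carotenoid-cleaving enzymes and aldehyde oxidases, 1 was called lower, and the median of the list was -0.59, with 17 of 24 below 0, against 55.8% of all genes. The called gene was Rdh5, a retinol dehydrogenase of the eye, at -2.83, -1.63, -2.81 and -1.26 on arrays 2 to 5 (mean -2.13, SE 0.51, limma adjusted p = 0.0255). All 4 of its values were below the array median. The call was lost without array 1, which did not measure Rdh5 (0.0649), without array 2 (0.0954) and without array 4 (0.0890). It was also lost with exact zeros kept (mean -1.39, 0.375) and with Gapdh at 0 (0.433).

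Of 16 other cytochrome P450 enzymes, 1 was called lower. It was Cyp1a1, the enzyme induced through the aryl hydrocarbon receptor, at -2.99, -1.50 and -2.39 on arrays 1, 3 and 4 (mean -2.30, SE 0.60, limma adjusted p = 0.0374). The call was lost without array 2, which did not measure it (0.0652), and kept without array 5, which did not either (0.0365). Without array 1, 3 or 4 the gene had too few values to be tested. With exact zeros kept its mean was -1.15 and the call was lost (0.453). The list's median was -0.21. None of the 16 other aldehyde dehydrogenases was called, and their median was close to 0. Aldh9a1 (mean 2.13, limma adjusted p = 0.0599) and Aldh1l1, the folate enzyme of astrocytes (1.25, 0.0885), had the smallest p among them.

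Of 16 retinoid X receptors, corepressors, coactivators and other partners (with Fabp5, a carrier of retinoic acid to another nuclear receptor), none was called and the median was 0.12. The smallest p belonged to the coactivator Ncoa3 (mean 1.59, limma adjusted p = 0.108) and the corepressor deacetylase Hdac3 (1.18, 0.141). Of 26 other nuclear receptors, 1 was called in each direction. Nr2f1, a repressor that can compete for retinoic acid response elements, was at 1.84, 1.33, 1.88, 1.46 and 1.68 on arrays 1 to 5 (mean 1.64, SE 0.41, limma adjusted p = 0.0294). Its 5 values were close together, but its sign turned with ribosomal protein genes at 0 (-0.39) or Actb at 0 (-1.02), and the call was lost without array 1 (0.0910), 2 (0.0675), 3 (0.0656) or 4 (0.0582).

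Nr1h4, the bile acid receptor, was at -1.61, -2.97, -1.63 and -2.39 on arrays 1 to 4 (mean -2.15, SE 0.50, limma adjusted p = 0.0223). On array 5 it stood at the ceiling, the opposite extreme. With zeros and ceiling kept its mean turned to 1.32 (limma adjusted p = 0.852). Its call was lost without array 1 (0.0687), array 2 (0.0881) or array 4 (0.0657), and with exact zeros kept (0.0733). None of 12 known target genes of retinoic acid was called, and their median was 0.28. The smallest p there belonged to Nrgn, a postsynaptic calmodulin-binding protein (mean 1.54, limma adjusted p = 0.115), and Foxa1 (1.16, 0.175). Rarb and Cyp26a1, also targets, were counted in the group itself, and which of its other genes are targets was not examined.

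**Figure D4:**
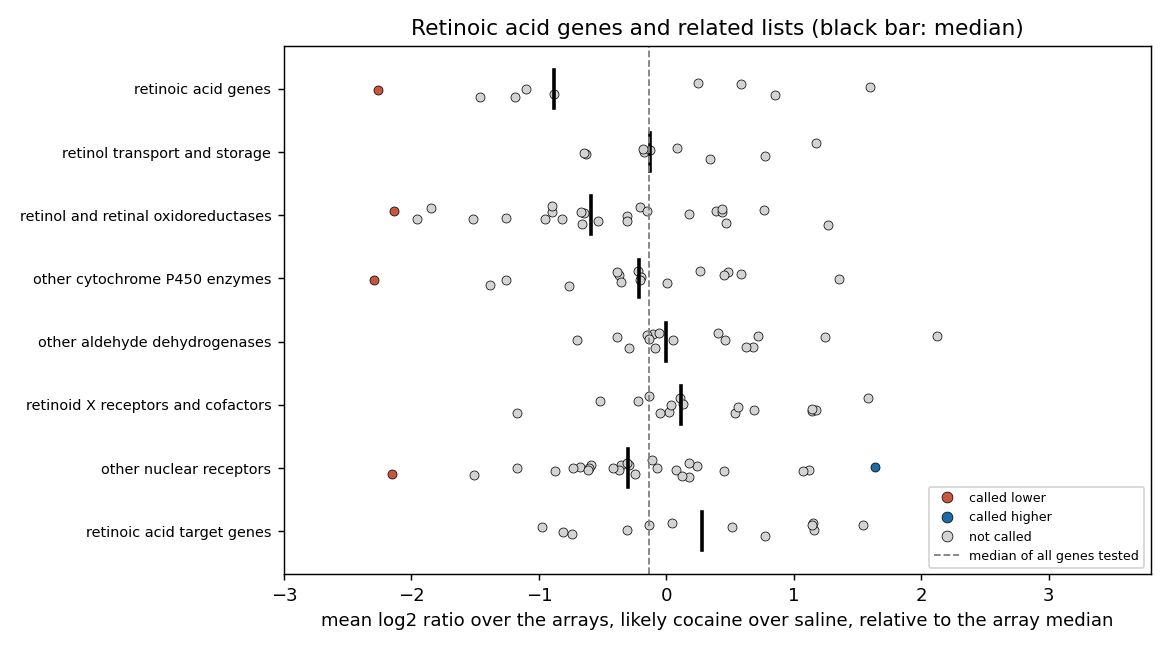
Mean log2 ratio over the arrays (horizontal axis, likely cocaine over saline, relative to the array median) of each tested gene of the retinoic acid group and of 7 related lists (rows); points are genes, coloured by the limma call, the black bar is the median of the list and the dashed line is the median of all genes tested. Besides Cyp26b1, the called genes are Rdh5, Cyp1a1 and Nr1h4 (lower) and Nr2f1 (higher). The median of the group is -0.89, and those of the 7 lists run from -0.59 to 0.28.

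Markers of other cell types were counted beside these genes. Of 3 tested red cell genes 2 were called higher, Hba-a1 and Hba-a2 (means 3.26 each, limma adjusted p = 0.0122), and of 7 markers of astrocytes and radial glia 1 was, Fabp7 (2.34, 0.0143). Over all genes 5.89% were called higher. Hba-a1 (4.33, 5.02, 1.17, 4.14 and 1.63 on arrays 1 to 5) and Hba-a2 (3.90, 5.00, 1.09, 4.55 and 1.77) had close values on each array. These 2 may therefore not be separate readings, and nothing is read from their count. The third red cell gene, Alas2, averaged -0.77 and was not called. Both haemoglobin calls were lost without array 1 (0.0649) or array 2 (0.0614), and that of Fabp7 likewise (0.0670 and 0.0652). These calls were also lost with exact zeros kept, with small whole-number ratios left out, and with ribosomal protein genes or Actb at 0. Fabp7 also turned below 0 with Actb at 0 (-0.32). No marker of pyramidal neurons (10 tested, median 0.14), interneurons (10, 0.75), dentate granule cells (4, -0.35), choroid plexus (5, 0.09), oligodendrocytes (6, -0.03), microglia (7, 0.01) or endothelium (6, -0.66) was called. The part of these cells in the values of Cyp26b1 and the other retinoic acid genes was not tested.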

How the data were processed

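Pyramidal layer RNA of P3 pups was hybridised to 5 two-colour arrays, and each array counts as 1 replicate of a single comparison. The authors deposited log2 ratios between the channels; image reading, background removal and normalization are not given in the sources used here, and the log base was read from the values, among which log2 ratios of small whole numbers recur at 3 decimals. Exact zeros and the ceiling (log2 of 100000) were treated as not measured, each array was centred on its median, and probes of 1 symbol were averaged. Features numbered 44290, of which 32042 had 1 symbol, 47 several and 12201 none in the probe table. 31906 of the features with 1 symbol matched RefSeq (GRCm38.p6). Genes with a value on 3 arrays or more entered an intercept-only fit in limma 3.58.1 (R 4.3.3), tested on simulated data, at a Benjamini-Hochberg adjusted p of 0.05 over all 28035. The members and lists were chosen with earlier results of these data known. Named in the text are all members, the 5 genes most like Cyp26b1, and in each list up to 4 called genes or, with none, the 2 with the smallest p. Cell type markers are named where called, with some of the other sign beside Col1a2 and the haemoglobin genes. The closing section adds those whose sign turned or whose arrays stood apart. Alternatives changed the reference level, missing values, array set, probe summary, variance model and threshold. The number of arrays limits the precision.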

Additional observations from a re-analysis of the deposited data

Results flagged for a closer look

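Among 37 genes examined for 1 array far from the others, 1 was found, and chance alone gives about 1 in 20. Dsp, a desmosome gene used as a marker of dentate granule cells, had a log2 ratio of 0.975 on array 3, while the other 3 measured arrays lay between -1.16 and -0.96. No gene of the retinoic acid group was found this way, and groups of 3 values were not examined.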

How the results depend on the processing

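No paired analysis was possible because there is 1 group and each array already sets both RNAs against each other. Counts of calls are given for all genes, the retinoic acid group and the 7 other lists, which were 1976, 1 and 4 as reported. They were 8174, 5 and 28 without centring, 19659, 6 and 86 with ribosomal protein genes at 0, and 24340, 8 and 107 with Actb at 0. They were 62, 0 and 0 with exact zeros kept, 0, 0 and 0 with zeros and ceiling kept, 51, 0 and 0 with small whole-number ratios left out, and 0, 0 and 0 with arrays 3 to 5 alone. The limma counts of 0 over all genes stand beside 3740 genes (zeros and ceiling kept) and 2722 (arrays 3 to 5) at an unadjusted p under 0.05. With arrays 1 and 2 alone the counts were 1548 over all genes, 0 in the group and 2 in the lists. At an adjusted p of 0.10 all genes gave 3489 and the lists 9, and with each feature on its own 2993 and 9. Leaving out 1 array gave 64 to 1950 over all genes, 0 to 1 in the group and 0 to 6 in the lists, with 64 without array 1 and 76 without array 2. With Actb at 0, which lowers the median of all genes, the sign turned for Rlbp1 (-1.48), Stra6 (-2.09), Aldh9a1 (-0.53), Aldh1l1 (-1.41), Ncoa3 (-1.28), Hdac3 (-1.48), Nr2f1 (-1.02), Nrgn (-1.12), Foxa1 (-1.70), Camk2a (-1.43), Gad2 (-1.04), Npy (-0.93), Ttr (-1.55), Fabp7 (-0.32), Olig1 (-1.37), Olig2 (-2.11), Tyrobp (-1.49) and Cldn5 (-1.35). With ribosomal protein genes at 0 it turned for Rlbp1 (-0.85), Stra6 (-1.35), Aldh1l1 (-0.78), Ncoa3 (-0.53), Hdac3 (-0.86), Nr2f1 (-0.39), Nrgn (-0.49), Foxa1 (-0.96), Camk2a (-0.69), Gad2 (-0.42), Npy (-0.30), Ttr (-0.81), Olig1 (-0.62), Olig2 (-1.49), Tyrobp (-0.74) and Cldn5 (-0.61). Without centring it turned for Rlbp1 (-0.039), Stra6 (-0.82), Ncoa3 (-0.0030), Hdac3 (-0.043), Foxa1 (-0.43), Camk2a (-0.16), Ttr (-0.28), Olig1 (-0.089), Olig2 (-0.67), Tyrobp (-0.21) and Cldn5 (-0.077). With Gapdh at 0 it turned for Tdo2 (0.66), Dsp (1.28), P2ry12 (0.18) and Flt1 (0.072). With zeros and ceiling kept it turned for Nr1h4 (1.32), Dsp (1.12) and Flt1 (0.73). It also turned with small whole-number ratios left out for Olig2 (-0.70). It also turned with arrays 1 and 2 alone for Tdo2 (0.39). The cause was not tested, except that a kept ceiling value of 16.61 enters the mean itself. No depth is known, since the table holds ratios only.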
